A study of Mus musculus with 29 samples.

Results

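The synaptonemal complex genes described here are Sycp1, Sycp2, Sycp3, Syce1, Syce2, Syce3 and Tex12, taken by name from a table of estimated gene counts that covers 51912 mouse gene IDs. All 7 were found in it. The samples were bulk RNA-seq libraries of whole mouse ovaries dissociated to cells with papain, 29 in all, from wild-type mice (Cdkn1b +/+) and mice lacking Cdkn1b (Cdkn1b -/-, p27null in the sample titles). Cdkn1b encodes p27Kip1, an inhibitor of cyclin-dependent kinases, and the null is constitutive, so germ cells and somatic cells both lack it. Ovaries came from fetuses on embryonic days 13.5 and 18.5 (E13.5 and E18.5), from pups on postnatal day 8 (PND8) and from adults of 12 weeks (12wk). Wild type had 4 libraries at every age. Cdkn1b-null had 4 libraries at E18.5 and 3 at each of the other ages, numbered 1, 3 and 4. The labels do not say how many animals went into a library, and p-values therefore measure the spread between these libraries, which may be partly technical.

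The synaptonemal complex is the protein zipper that joins homologous chromosomes along their length during prophase of the first meiotic division. SYCP2 and SYCP3 build the lateral elements on each chromosome axis. SYCP1 forms the transverse filaments that bridge the axes, and SYCE1, SYCE2, SYCE3 and TEX12 make up the central element in the middle of the zipper. In the female mouse, germ cells enter meiosis in the fetal ovary under the control of STRA8 and MEIOSIN, assemble and disassemble the complex before birth, and then rest in dictyate arrest inside primordial follicles.

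Levels are given as CPM, the counts of a gene as a share of the library total after TMM scaling, which sets the bulk of genes equal between libraries. Library totals ran from 14095601 to 48213177 estimated counts, so that 3 counts, taken as the limit of detection in a library, were worth 0.0693 to 0.231 CPM. The targeted gene was checked first. At E13.5 Cdkn1b was at 19.1 to 26.1 CPM in wild type and 4.29 to 4.75 in the null, and the groups were also apart at E18.5 (95.2 to 123 against 9.44 to 15.6). At PND8 (133 to 173 against 65.0 to 79.8) and 12wk (124 to 265 against 42.1 to 56.2) the null kept more Cdkn1b reads, and the gene-level table does not say where along the gene they fell. The difference passed the test at E13.5, E18.5 and PND8 and missed it at the adult age (adjusted p = 0.211, edgeR quasi-likelihood test with Benjamini-Hochberg adjustment). With all groups in 1 fit it passed at the adult age (adjusted p = 0.000105) and missed the threshold at PND8 (0.106), and DESeq2 called it in adults too (5.01e-07). The call was lost in 5 of 7 fits that left out 1 library at E13.5 (adjusted p up to 0.207) and in 2 of 7 at PND8 (up to 0.117), with the log2 difference staying between -2.46 and -2.31 and between -1.15 and -0.99. The ovarian somatic marker Foxl2 was present in every group, from a mean of 9.24 CPM in E13.5 wild type to 487 in PND8 wild type. A pair of E13.5 libraries stood apart. Cdkn1b-null replicate 3 was high in meiotic genes, as described below, and wild-type replicate 3 had a summed level of 9 red blood cell genes of 207000 CPM, the highest of the 7 libraries at that age.

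The promoters are shown first because the letters there divide the family. RefSeq windows on GRCm38.p6, from 250 bases before to 50 after a transcription start, were found for 7 of 7 genes (9 windows, since Syce2 and Syce3 have a second start). They were searched on both strands for CACGTG (the E-box bound by MYC/MAX-type factors), TCCCGC (the core of the E2F site), CNCCTCAG (a motif reported for STRA8) and TGACGTCA (the CRE). The 3 promoters below were picked because they hold CACGTG. They come from the 3 layers of the complex (lateral element, transverse filament and central element) and do not stand for every gene of a layer. The 160 bases run 5′ to 3′ on the gene's strand from 150 before the start to 10 after it, and capitals mark any match to a searched motif.
Sycp3, chr10:88459437-88459596, plus strand: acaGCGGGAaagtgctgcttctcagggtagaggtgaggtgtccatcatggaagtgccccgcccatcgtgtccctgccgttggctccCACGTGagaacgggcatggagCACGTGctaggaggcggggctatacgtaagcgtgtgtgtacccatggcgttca
Sycp1, chr3:102936091-102936250, minus strand: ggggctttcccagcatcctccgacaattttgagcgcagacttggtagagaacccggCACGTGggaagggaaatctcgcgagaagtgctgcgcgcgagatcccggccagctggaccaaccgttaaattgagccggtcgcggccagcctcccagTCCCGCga
Tex12, chr9:50561259-50561418, minus strand: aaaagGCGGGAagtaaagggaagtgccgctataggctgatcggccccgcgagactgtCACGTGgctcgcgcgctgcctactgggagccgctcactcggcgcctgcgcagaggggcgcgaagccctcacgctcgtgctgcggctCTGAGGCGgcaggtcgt

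CACGTG was found in 4 of 7 genes. It stood at positions -64 and -43 from the start in Sycp3, at -94 in Sycp1, at -93 in Tex12 and at -88 in the second window of Syce2. Of 32851 windows in the whole table, 7.15% held it. TCCCGC was in the same 4 genes, against 20.0% of all windows, and CNCCTCAG in Sycp1 (beyond the printed stretch, at position 33), Syce2 and Tex12, against 7.94%. In the second Syce2 window the CNCCTCAG and TCCCGC matches overlap. None of the windows of Sycp2, Syce1 and Syce3 held any of these letters, and TGACGTCA, present in 1.79% of windows, was in none of the 7 genes. The shares are per window, while the counts are per gene, and Syce2 and Syce3 had a second window in which to match. The windows of the family were 54.7 to 69.3% G and C, against a median of 52.7% over all windows. They held 5 to 33 CG pairs, against a median of 7. The shares are not adjusted for this. A match is a run of letters and was not tested as a binding site.

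In wild type, 6 of the 7 genes rose from E13.5 to E18.5, and all 7 fell from E18.5 to PND8. Of all genes tested, 16.6% rose and 17.5% fell at the first step, and 36.9% fell at the second (edgeR quasi-likelihood, adjusted p under 0.05). The libraries of E13.5 and E18.5 did not overlap for the 6 genes that rose, where 17.4% of all genes lay wholly higher at E18.5. The median of the 7 log2 changes was 4.94 at the first step, against 0.01 over all genes, and -7.07 at the second, against 0.01. Syce2 was the gene that did not rise. Syce3 at the first step had enough counts for the test through E18.5 alone, as had Sycp2, Syce3 and Tex12 at the second. For these a change in the other direction was hardly possible. In bulk tissue, fewer germ cells and less RNA per germ cell cannot be told apart, and this holds for every level below.

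**Figure D1:**
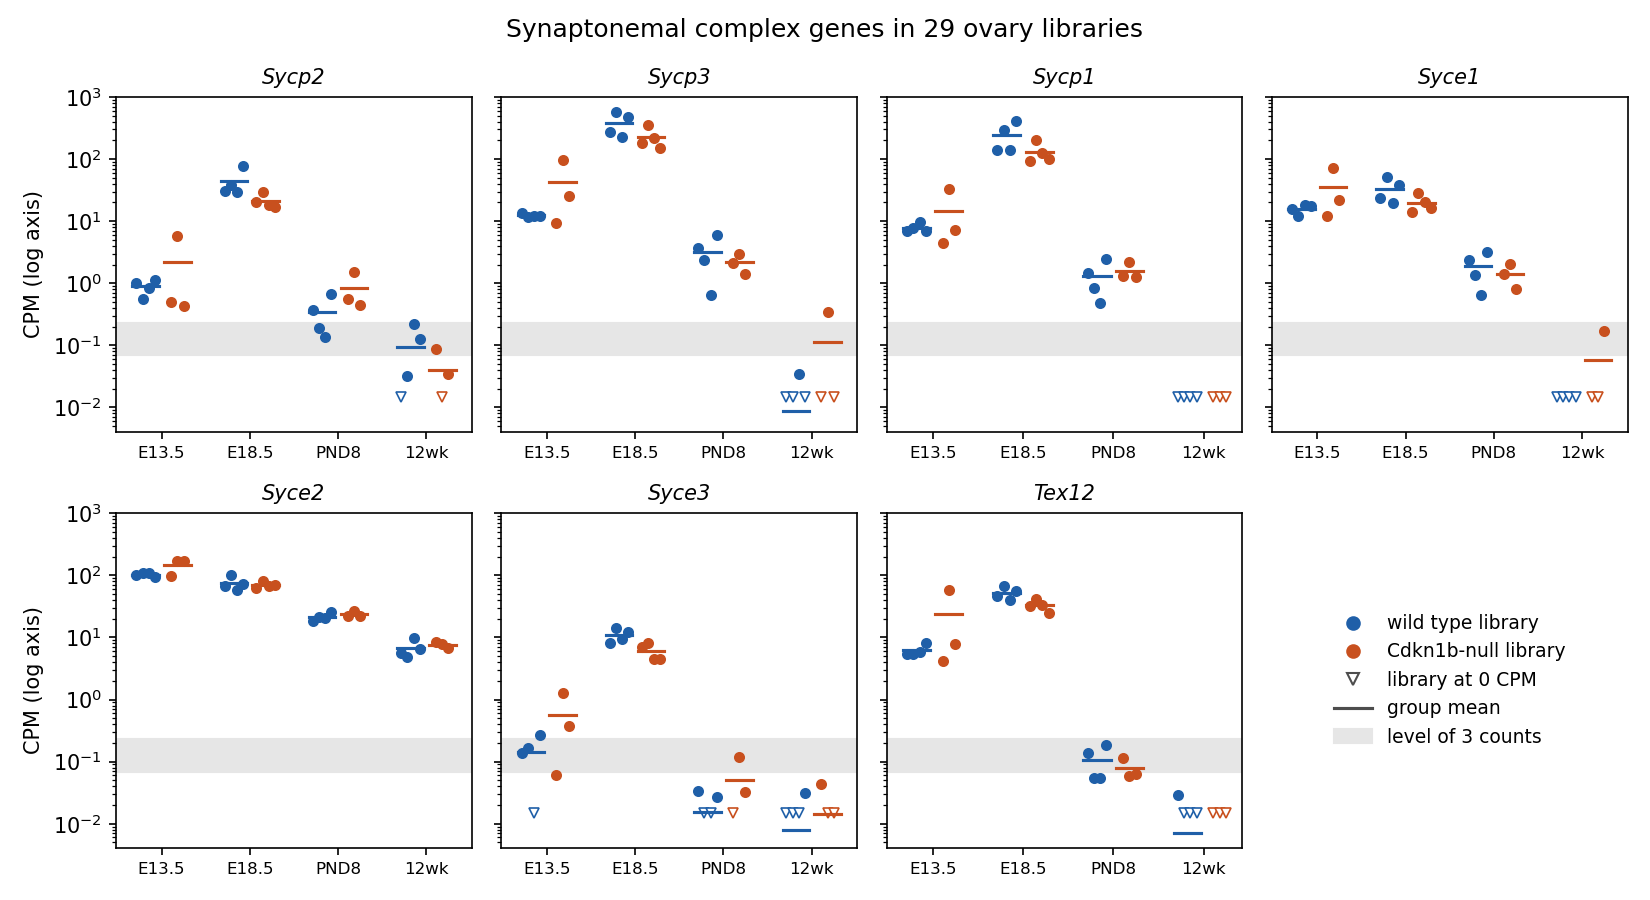
Level of each synaptonemal complex gene in every library, in CPM on a log axis, by age on the horizontal axis; points are libraries, short lines group means, open triangles libraries at 0 and the grey band the level of 3 counts. Most genes peak at E18.5 in both genotypes and reach the grey band by 12wk, while Syce2 starts at a wild-type mean of 103 CPM and stays at 4.78 CPM or more in every library.

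Levels were compared between genes per kilobase of exon (all exons of a gene joined). In E18.5 wild type the order of the means was Sycp3 (307 CPM per kb), Sycp1 (68.7), Tex12 (51.9), Syce2 (37.9), Syce1 (22.9), Syce3 (19.9) and Sycp2 (7.33). The 4 Sycp3 libraries (182 to 458 CPM per kb) lay above those of Sycp1 (39.1 to 115), and those of Sycp2 (4.87 to 12.9) below those of Syce3 (14.9 to 25.5). Between these ends, neighbours in the order overlapped.

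Sycp3, a lateral element gene, reached the highest level per kilobase of exon of the 7 genes at E18.5 (307 CPM per kb in wild type). Its wild-type libraries at E13.5 were at 13.5, 11.7, 12.2 and 12.1 CPM for replicates 1 to 4, and at E18.5 at 271, 579, 230 and 472. The E18.5 libraries thus lay all above those of E13.5, with replicates 2 and 4 high. The log2 change was 4.96 ± 0.309 (SE, adjusted p = 8.79e-06). At PND8 the level was 3.68, 2.34, 0.654 and 5.88 CPM, a log2 change of -7.03 ± 0.653 from E18.5 (adjusted p = 7.7e-06). At 12wk it was 0 in 3 libraries and 0.0348 CPM in replicate 3. The locus, chr10:88459569-88473236 on GRCm38 (GENCODE M21), shares 660 exonic bases with Chpt1 on the opposite strand, and strandedness is not given in the sources used here. Chpt1, a phospholipid synthesis gene, was at 31.8 to 52.5 CPM in the 7 libraries of 12wk, where Sycp3 was at or near 0.

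Sycp2, the other lateral element gene (chr2:178345293-178407685), had the lowest level per kilobase at E18.5, 7.33 CPM per kb in wild type, and changed by a similar size. Its wild-type libraries held 1.00, 0.560, 0.847 and 1.15 CPM at E13.5 and 30.5, 38.6, 29.1 and 76.8 CPM at E18.5. The ages did not overlap, and replicate 4 was the high library at E18.5. The log2 change was 5.58 ± 0.396 (adjusted p = 1.48e-05). At PND8 it had dropped to 0.135 to 0.669 CPM, a log2 change of -7.07 ± 0.516 (adjusted p = 9.23e-07), and at 12wk its libraries lay between 0 and 0.222 CPM, with 12 counts over the group.

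Sycp1, which encodes the transverse filament protein (chr3:102818499-102936100), followed the same course. It was at 6.83, 7.90, 9.85 and 6.96 CPM in E13.5 wild type and at 140, 291, 139 and 408 CPM at E18.5. The 4 later libraries again lay above the 4 earlier, with replicates 2 and 4 again the high libraries. The log2 change was 4.94 ± 0.390 (adjusted p = 3.01e-05). PND8 libraries held 0.485 to 2.46 CPM, a log2 change of -7.63 ± 0.605 (adjusted p = 2.32e-06). Every one of the 7 libraries of 12wk was at 0, so that from PND8 to 12wk wild type was at least 14.1-fold lower, taking 3 counts per library as the limit.

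The central element genes did not move as a block. Syce3 (chr15:89390174-89410503), needed to load the other central element proteins, went from 0.137, 0.168, 0 and 0.264 CPM in E13.5 wild type to 8.26, 14.1, 9.30 and 12.3 at E18.5. E13.5 lay at or near the level of 3 counts, and E18.5 well above it (log2 change 6.09 ± 0.494, adjusted p = 3.01e-05). Tex12 (chr9:50556819-50561325), whose product partners SYCE2 in the fibres of the central element, went from 5.42, 5.43, 5.77 and 8.11 CPM to 45.7, 67.8, 40.6 and 56.8 (log2 change 3.08 ± 0.216, adjusted p = 1.44e-05). It started higher than Syce3 and rose by less. At PND8 Syce3 held 2 counts over the 4 wild-type libraries together, and Tex12 was at 0.0539 to 0.187 CPM; relative to E18.5 both fell (adjusted p = 1.85e-07 and 3.14e-08).

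Syce1 (chr7:140777229-140787852) was already at 15.9, 12.0, 18.4 and 17.6 CPM in E13.5 wild type and reached 23.7, 51.2, 19.8 and 38.9 at E18.5. The lowest later library, at 19.8, lay just above the highest earlier library, at 18.4. The log2 change of 1.05 ± 0.292 passed the test (adjusted p = 0.0189). This call did not hold throughout: it was lost with all groups in 1 fit (adjusted p = 0.0889), without E18.5 replicate 2 (adjusted p = 0.0565), without E18.5 replicate 4 (0.0527) and without E13.5 replicate 2 (0.0515). Syce1 fell to 0.647 to 3.16 CPM at PND8 (log2 change -4.22 ± 0.489, adjusted p = 2.16e-05) and was at 0 in all 4 wild-type libraries of 12wk, at least 20.4-fold lower than at PND8.

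Syce2 (chr8:84872111-84888221) differed from the rest of the family in both its start and its end. In E13.5 wild type it was at 101, 108, 109 and 93.4 CPM, the highest of the 7 genes per kilobase (52.1 CPM per kb). At E18.5 it was at 66.3, 102, 57.2 and 73.0 CPM; replicate 2 lay inside the E13.5 range and the other 3 below it. The log2 change of -0.47 ± 0.172 missed the threshold (adjusted p = 0.0574), and without E18.5 replicate 2 it passed, at -0.66 (adjusted p = 0.0059). It then fell to 18.6 to 25.6 CPM at PND8 (log2 change -1.88 ± 0.190, adjusted p = 8.03e-06) and to 4.78 to 9.69 CPM at 12wk (-1.62 ± 0.219, adjusted p = 0.000981). At 12wk it was the only gene of the 7 that was above the level of 3 counts in every library.

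From PND8 to 12wk in wild type, 4 of the 7 genes had enough counts to be tested (Sycp1, Sycp3, Syce1 and Syce2), and all 4 fell, against 14.3% of all genes. Sycp1, Sycp3 and Syce1 were at or near 0 at 12wk and had enough counts for the test through PND8 alone. For these 3 a rise was hardly possible, so the share of all genes is no measure of their fall. Of the 3 genes not tested, Syce3 and Tex12 were near the level of 3 counts at PND8. Sycp2, with 48 counts over the 4 libraries, did not pass the filter on low counts. Having 4 of 4 lower says nothing of the genes not tested.

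At E13.5 the SD among the 3 null libraries was larger than the difference between the genotype means for 6 of the 7 genes, all but Syce2. Sycp3 was at 9.29, 95.6 and 25.1 CPM in null replicates 1, 3 and 4. Replicate 1 lay below all wild-type libraries (11.7 to 13.5), replicate 4 above them and replicate 3 far above. Tex12 was at 4.17, 58.4 and 7.97 CPM, against 5.42 to 8.11 in wild type. Sycp1 was at 4.41, 32.8 and 7.23 CPM, against 6.83 to 9.85. In both genes replicate 1 was under the wild-type range, replicate 4 inside it and replicate 3 far above it.

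The remaining genes gave the same picture of a high replicate 3, with Syce2 as the exception. Sycp2 was at 0.490, 5.72 and 0.425 CPM in null replicates 1, 3 and 4, with replicates 1 and 4 both under the wild-type range of 0.560 to 1.15. Syce1 was at 12.0, 71.2 and 21.8 CPM, against 12.0 to 18.4. Syce3 was at 0.0613, 1.28 and 0.372 CPM, against 0 to 0.264. Null replicate 3 was thus the highest of 7 libraries in all of these genes. Syce2 was at 97.1, 171 and 169 CPM, with replicates 3 and 4 about equal and both above the wild-type maximum of 109.

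**Figure D2:**
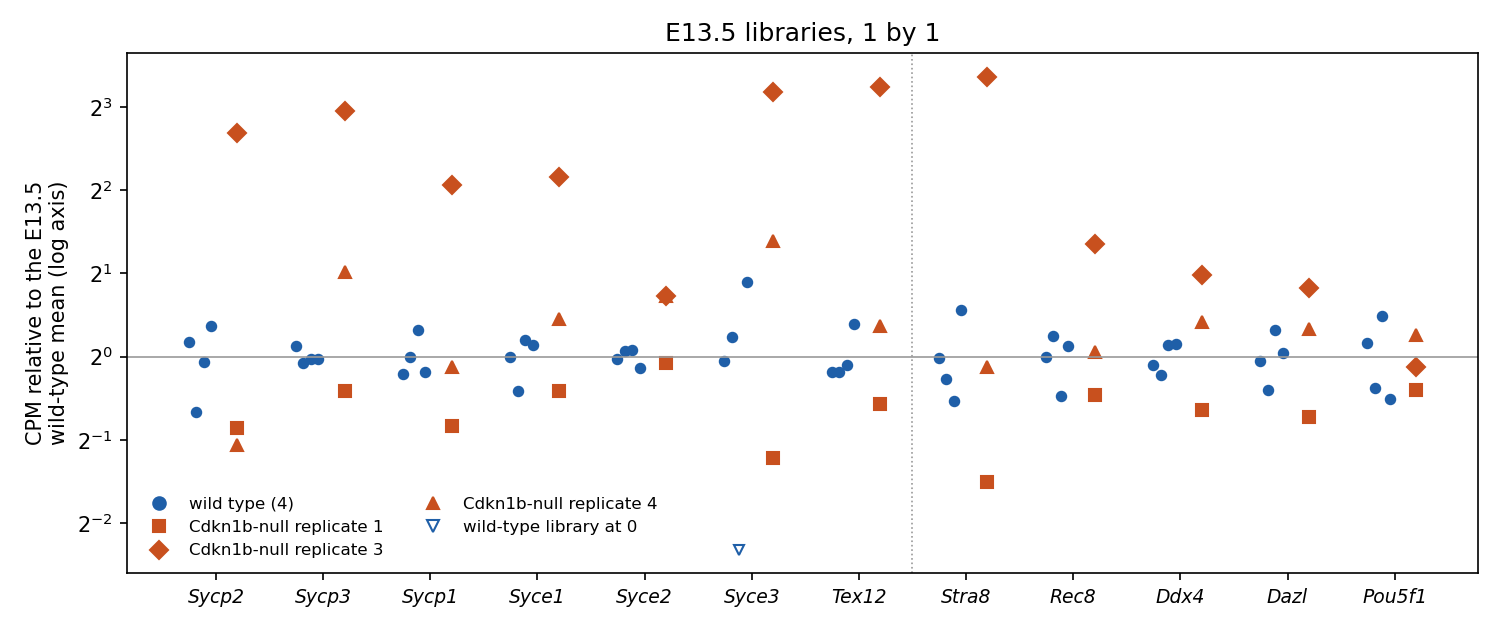
CPM of each synaptonemal complex gene and of 5 companion genes in the 7 libraries of E13.5, divided by the wild-type mean and drawn on a log axis; symbols separate the 3 null libraries. Null replicate 3 (diamonds) is the highest library for all 7 complex genes and for Stra8, Rec8, Ddx4 and Dazl, while for Pou5f1 it lies within the wild-type points.

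None of the 6 genes tested passed at E13.5 (edgeR quasi-likelihood, adjusted p = 0.988 for each), and 0.00606% of all genes did. At an unadjusted p under 0.05 there were 3 (Sycp3, Syce2 and Tex12), where 3.49% of all genes lay under it. The estimates, null over wild type, were 1.76 ± 0.625 on the log2 scale for Sycp3, 1.88 ± 0.771 for Tex12, 1.27 ± 0.861 for Sycp2, 1.08 ± 0.510 for Syce1, 0.86 ± 0.594 for Sycp1 and 0.46 ± 0.189 for Syce2. Syce3 was filtered for low counts. DESeq2 called none either. These estimates rested on null replicate 3. Without it they were 0.45 for Sycp3, 0.35 for Syce2, 0.06 for Syce1, -0.05 for Tex12, -0.46 for Sycp1 and -0.97 for Sycp2, so that 3 of 6 changed sign.

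Replicate 3 was high in meiotic genes outside the complex as well. Stra8, which commits germ cells to meiosis, was at 75.3 CPM there, at 2.58 and 6.75 CPM in null replicates 1 and 4 and at 5.08 to 10.9 CPM in wild type. Its partner Meiosin was at 25.8 CPM, against 2.93 to 5.46 in the other 6 libraries. The meiotic cohesin gene Rec8 was at 116 CPM (others 32.9 to 54.4), the axis gene Hormad1 at 77.2 (others 17.1 to 44.6) and the strand exchange gene Dmc1 at 14.6 (others 3.13 to 4.87). In all of these replicate 3 was outside the range of the other 6 libraries. The general germ cell genes were also highest there, by a smaller margin: Ddx4 was at 223 CPM (others 72.1 to 149) and Dazl at 367 (others 126 to 262). Pou5f1, a pluripotency gene of primordial germ cells, was at 58.0 CPM in replicate 3, within the wild-type range of 44.3 to 88.5. The summed level of 8 pregranulosa genes was highest in replicate 3 too (701 CPM, others 345 to 581). So was that of 7 steroidogenic genes (57.6, others 17.0 to 46.2). Sums of Sertoli, red blood cell, endothelial and mesonephros genes lay within the range of the other libraries. That of 6 macrophage genes was the lowest (46.3, others 55.8 to 111). The part of the number of germ cells or of other cells in these levels was not tested.

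A ratio to the germ cell genes Ddx4 and Dazl was taken in each library to set the levels beside germ cell RNA. It is the log2 of a gene's CPM over the geometric mean of both markers, with 0.1 CPM added throughout. At E13.5 the Sycp3 ratio was -3.34, -1.58 and -2.97 in null replicates 1, 3 and 4, against -3.87 to -3.39 in wild type. The Tex12 ratio was -4.48, -2.29 and -4.61, against -4.93 to -4.32. For both genes replicate 3 remained above every other library after division by the markers. Syce2 did not follow, with ratios of 0.03, -0.75 and -0.22, against -0.81 to -0.20 in wild type. In replicate 3 its level was 1.66-fold the wild-type mean, with Ddx4 at 1.98-fold and Dazl at 1.77-fold. In replicate 4 it was 1.65-fold, with Ddx4 at 1.33-fold and Dazl at 1.26-fold. For Sycp3 all 3 null ratios lay above the wild-type range, as did those of Syce1 (-3.171 to -2.005 against -3.344 to -3.178). In both genes the gap between the groups was narrow. The share of all genes that lie apart by such a ratio was not taken, so the gap cannot be read as a genotype effect. For the other genes the groups overlapped, and the difference in these ratios between genotypes at E13.5 was not tested.

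At E18.5 the direction of the estimates was the opposite. All 7 genes were lower in the null on average, and none passed the test, while 4.99% of all genes were called, 3.32% higher and 1.67% lower. At an unadjusted p under 0.05 there were 4 (Sycp2, Syce1, Syce3 and Tex12), where 22.1% of all genes lay under it. The median log2 difference was -0.78 over the 7 genes and -0.04 over all genes tested.

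Tex12 came nearest to the threshold. Its null libraries were at 32.1, 41.9, 33.6 and 24.7 CPM for replicates 1 to 4, and its wild-type libraries at 45.7, 67.8, 40.6 and 56.8. The groups overlapped by the null replicate 2 alone. The difference was -0.68 ± 0.184 (log2, adjusted p = 0.0563). Syce3 was at 7.08, 8.05, 4.49 and 4.43 CPM in the null and at 8.26 to 14.1 in wild type. It was the only gene of the 7 whose groups did not overlap, where 5.56% of all genes lay wholly lower (log2 difference -0.88 ± 0.251, adjusted p = 0.0689). Sycp2 was at 20.3, 29.8, 18.4 and 17.0 CPM in the null against 29.1 to 76.8 (-1.05 ± 0.317, adjusted p = 0.0937), and without wild-type replicate 4 its difference was -0.63. With DESeq2 these 3 genes were called (adjusted p = 0.0108 for Tex12, 0.0133 for Syce3 and 0.00725 for Sycp2), so that the call depended on the test. Without the filter on low counts Tex12 alone was called (adjusted p = 0.0327).

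The abundant genes of the complex varied more within each genotype. Sycp3 was at 182, 359, 217 and 153 CPM in the null and 230 to 579 in wild type (-0.78 ± 0.358, adjusted p = 0.247). Sycp1 was at 92.2, 202, 123 and 101 CPM against 139 to 408 (-0.93 ± 0.415, adjusted p = 0.241), a difference of -0.57 without wild-type replicate 4. In both the highest null library, replicate 2, lay inside the wild-type range. Syce1 was at 14.1 to 28.4 CPM against 19.8 to 51.2 (-0.76 ± 0.314, adjusted p = 0.190; -0.48 without wild-type replicate 2). Syce2 was at 63.7, 80.9, 67.9 and 70.9 CPM, within the wild-type range of 57.2 to 102, and its difference of -0.09 ± 0.161 (adjusted p = 0.797) was the smallest; without wild-type replicate 2 it was 0.10.

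**Figure D3:**
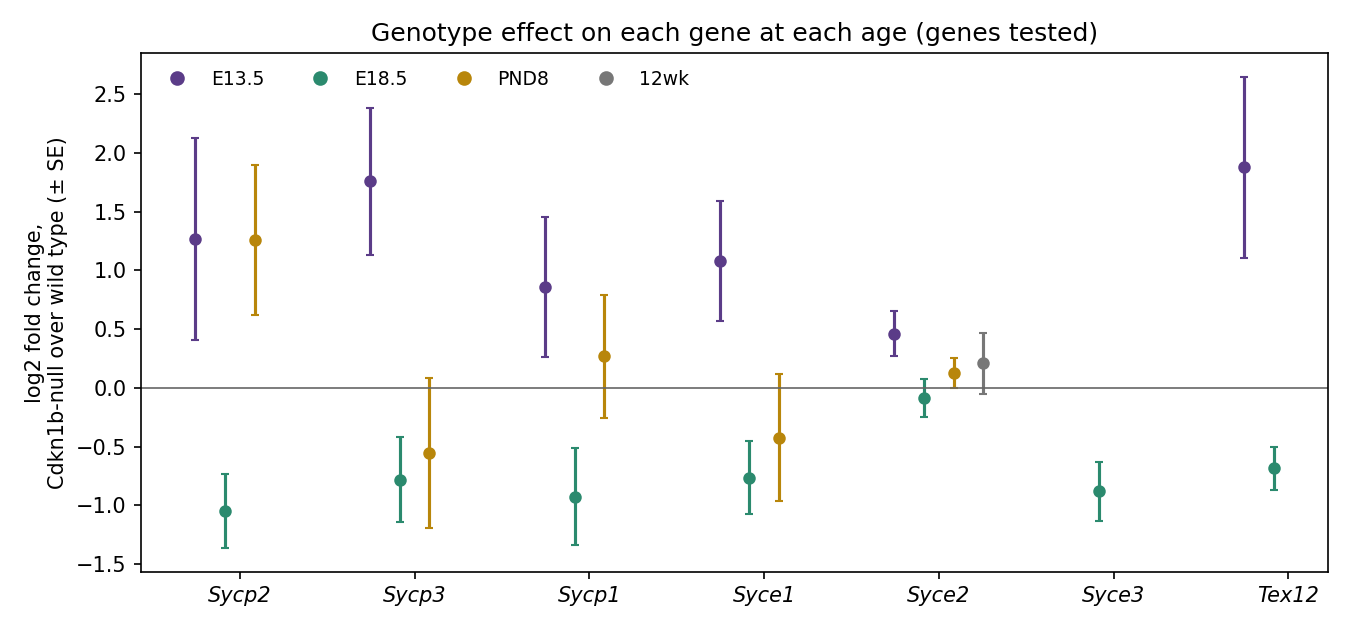
Log2 difference between Cdkn1b-null and wild type for each synaptonemal complex gene at each age at which it was tested (edgeR quasi-likelihood estimates; bars are ± 1 SE). Estimates lie above 0 at E13.5 and below 0 at E18.5 for all genes tested at both ages, and none passed the adjusted threshold; without null replicate 3, Sycp1, Sycp2 and Tex12 are below 0 at E13.5 too, and without wild-type replicate 2, Syce2 is above 0 at E18.5.

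Germ cell genes were lower in the same E18.5 libraries. Ddx4 was at 24.2, 39.0, 33.5 and 24.1 CPM in the null and at 44.3, 54.1, 32.9 and 53.2 in wild type. Dazl was at 60.5, 132, 92.2 and 74.0 CPM, against 82.4, 201, 76.7 and 155. Wild-type replicates 2 and 4 and null replicate 2, which were highest for Sycp1 and Sycp3, were also highest for Dazl. Markers of other cells were checked in the same libraries. The summed level of 8 pregranulosa genes was 931 to 1190 CPM in the null and 821 to 1070 in wild type. That of 7 steroidogenic genes was 275 to 366 CPM against 150 to 252, mostly Hsd3b1, the only called gene of 4 tested (0.75 ± 0.189, adjusted p = 0.0478), with the Leydig and adrenal markers Insl3, Cyp11b1 and Cyp21a1 at 0 or near it. All 6 red blood cell genes tested had a lower estimate in the null (median log2 difference -0.78) and none was called, with summed levels of 1600 to 24100 CPM in the null and 1580 to 32900 in wild type. Summed levels of 6 endothelial genes (186 to 250 CPM in the null, 114 to 295 in wild type), 6 macrophage genes (59.9 to 110, 61 to 96) and 6 mesonephros genes (7.74 to 54.7, 12.4 to 19.1) overlapped between genotypes. The part of these cells in the complex genes was not tested. All 10 genes of the germ cell list had a lower mean estimate in the null, with a median of -0.45 and none called. Taken as ratios to Ddx4 and Dazl, the wild-type and null means were 2.30 ± 0.147 and 2.10 ± 0.223 for Sycp3 (log2, SD, n = 4 each), -0.50 ± 0.176 and -0.63 ± 0.254 for Tex12, and -2.76 ± 0.225 and -3.10 ± 0.494 for Syce3. In these 3 genes the difference between genotypes was under 1 SD of the null libraries. It was over it for Sycp1 (1.58 ± 0.409 and 1.29 ± 0.146), Sycp2 (-0.86 ± 0.494 and -1.27 ± 0.280) and Syce1 (-1.23 ± 0.151 and -1.39 ± 0.0638), all lower in the null. By the SD of the wild-type libraries the split changed. The difference was then over 1 SD for Sycp3, Syce3 and Syce1 and under it for Tex12, Sycp1 and Sycp2. The difference in these ratios was not tested. Syce2 again went its own way, at -0.01 ± 0.225 in wild type and 0.48 ± 0.299 in the null. Over all 10 genes of the germ cell list instead, the wild-type and null means were 3.89 and 3.52 for Sycp3 and 1.09 and 0.795 for Tex12. They were -1.17 and -1.67 for Syce3, and Sycp1, Sycp2 and Syce1 were lower in the null too. Syce2 was higher there, at 1.91 against 1.58. These differences were not tested either.

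**Figure D4:**
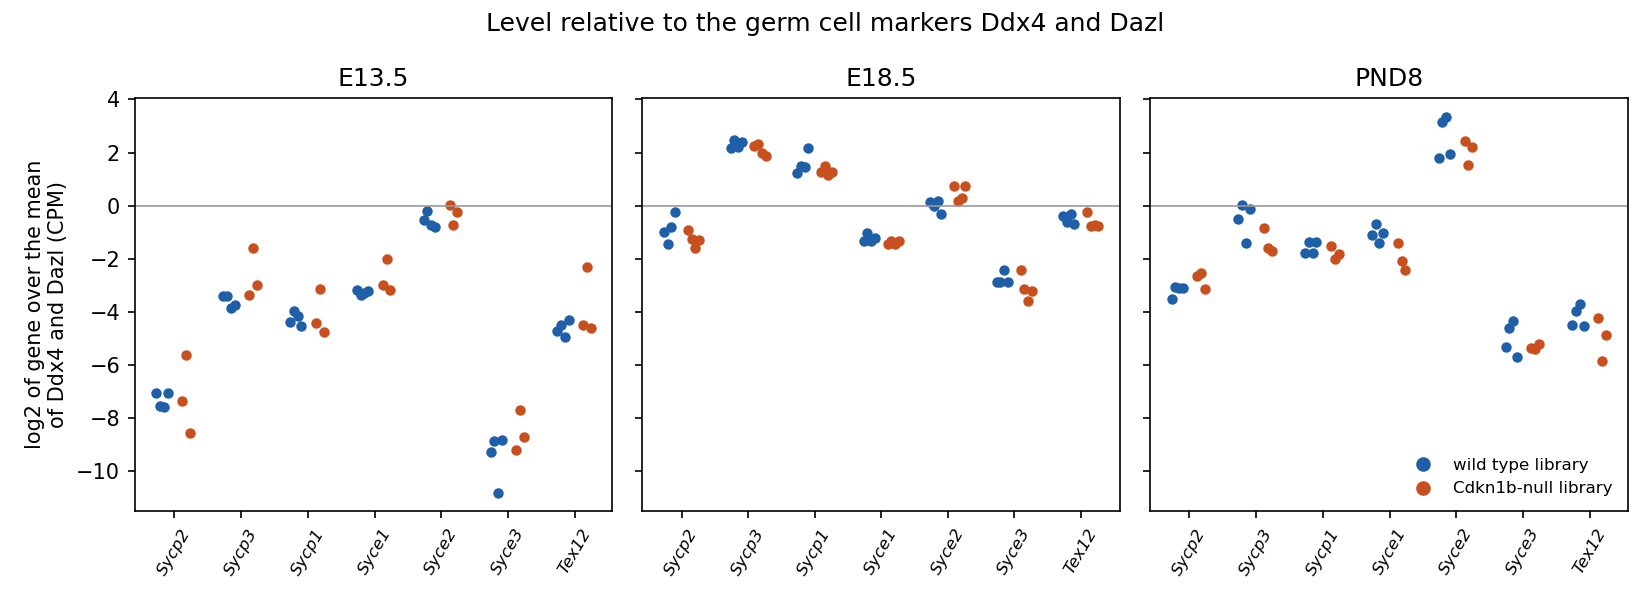
Log2 ratio of each synaptonemal complex gene to the geometric mean of Ddx4 and Dazl, per library, at 3 ages. At E18.5 the genotypes overlap for most genes, and from E13.5 to E18.5 the ratio of Sycp3 goes from below 0 to above it in every library.

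From E13.5 to E18.5 the complex genes rose relative to Ddx4 and Dazl. In wild type the Sycp3 ratio went from -3.60 ± 0.238 at E13.5 to 2.30 ± 0.147 at E18.5 (log2, SD, n = 4 each), and that of Sycp1 from -4.26 ± 0.257 to 1.58 ± 0.409. Tex12 went from -4.61 ± 0.269 to -0.50 ± 0.176. Ddx4 itself fell over this step (log2 change -1.30 ± 0.172, adjusted p = 0.000366). The ratio of Syce2 changed less, from -0.56 ± 0.270 to -0.01 ± 0.225. Its direction depended on the markers: over all genes of the germ cell list it went down, from 2.09 to 1.58 (wild-type means). At PND8, with Ddx4 at 2.24 to 12.5 CPM over both genotypes, the ratio was -0.51 ± 0.641 for Sycp3 and -4.17 ± 0.408 for Tex12 in wild type. Sycp1 was at -1.57 ± 0.243. From E18.5 to PND8 these 3 genes thus went down by more than the marker mean, and the ratio of Syce2 went up, to 2.57 ± 0.798. Tex12 at PND8 was near the level of 3 counts and near the 0.1 CPM added, so its ratio there is rough.

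After birth no genotype difference was called for any of the 5 genes tested at PND8 (0.349% of all genes were called) or for Syce2, the only gene tested at 12wk (0.0115%). At an unadjusted p under 0.05 there was none either, where 15% of all genes at PND8 and 9.63% at 12wk lay under it, and DESeq2 called none. At PND8 the estimates ran from -0.56 ± 0.643 for Sycp3 to 1.26 ± 0.636 for Sycp2, which was at 0.55, 1.5 and 0.45 CPM in the null and 0.135 to 0.669 in wild type (adjusted p = 0.392). Sycp1 changed sign without wild-type replicate 3 (-0.01) or null replicate 3 (-0.03), from 0.27 ± 0.520. Syce2 was at 22.0 to 26.5 CPM in the null against 18.6 to 25.6 at PND8, and at 6.65 to 8.58 against 4.78 to 9.69 at 12wk. At 12wk traces of the other genes appeared in single null libraries: Sycp3 at 0.344 CPM in replicate 3 (a total of 12.9 estimated counts over the group) and Syce1 at 0.173 CPM in replicate 4 (5 counts). The depth at 12wk could not show a difference for these genes.

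Within the null, the step from E13.5 to E18.5 gave 3 genes higher (Sycp1, Sycp2 and Syce3) and 1 lower (Syce2), against 15.8% and 14.5% of all genes. Sycp2 and Syce3 had enough counts for the test through E18.5 alone, so for them a fall was hardly possible. The log2 changes were 3.13 ± 0.761 for Sycp1 (adjusted p = 0.0251), 3.23 ± 0.879 for Sycp2 (0.0324), 3.33 ± 0.693 for Syce3 (0.0081) and -1.01 ± 0.182 for Syce2 (0.004). Sycp3 (2.42 ± 0.817, 0.0717), Tex12 (0.52 ± 0.856, 0.692) and Syce1 (-0.80 ± 0.580, 0.344) missed the threshold. Here, too, E13.5 replicate 3 set the size. Without it 6 genes were called, with Sycp3 at 3.72, Tex12 at 2.44 and Sycp2 at 5.54, and Syce1 was at 0.23. Leaving out E13.5 replicate 1, E13.5 replicate 4 or E18.5 replicate 2 instead left 2 calls each, Syce2 and Syce3. Sycp2 was also lost without E18.5 replicate 3 (adjusted p = 0.0613) or 4 (0.0618), and without the filter on low counts neither Sycp1 (0.0715) nor Sycp2 (0.106) was called.

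The later steps in the null resembled those in wild type in direction. All 7 genes fell from E18.5 to PND8, against 38.5% of all genes, with log2 changes from -1.65 ± 0.115 for Syce2 to -8.63 ± 0.30 for Tex12. From PND8 to 12wk all 5 genes tested fell, against 14.3% of all genes. All but Syce2 were at or near 0 at 12wk and had enough counts for the test through PND8 alone. In the step before, Sycp2, Syce3 and Tex12 had enough through E18.5 alone. For these genes a rise was hardly possible, so the share of all genes is no measure of their fall. Only 2 of the 5 calls from PND8 to 12wk were left without PND8 replicate 3 (Sycp1 and Syce2). Without PND8 replicate 1, 3 were left (Sycp1, Sycp2 and Syce2). The Sycp3 call was left in 1 of 6 fits that left out 1 library, with log2 changes from -9.09 to -3.41, and was lost without the filter on low counts (adjusted p = 0.051). Whether the genotype difference changed with age was tested directly. No gene of the 7 passed over the 4 ages (adjusted p from 0.205 for Tex12 to 0.627 for Syce2), where 0.806% of all genes did. At an unadjusted p under 0.05 there were 5 (Sycp2, Sycp3, Syce1, Syce3 and Tex12), where 12.7% of all genes lay under it. Tex12 passed without E13.5 null replicate 1 (adjusted p = 0.0252), and with DESeq2 Sycp3 passed (adjusted p = 0.04).

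A test of E13.5 and E18.5 alone, added after the sign change between these ages was seen, called none of the 7 either (0.421% of all genes). At an unadjusted p under 0.05 there were 6, all but Syce2, where 9.83% of all genes lay under it, and DESeq2 called Syce3. The difference in log2 effect, E18.5 minus E13.5, was -2.78 ± 0.856 for Syce3 (adjusted p = 0.248), -2.57 ± 0.825 for Tex12 and -2.55 ± 0.782 for Sycp3, with the other 4 between -2.37 and -0.55. Without E13.5 null replicate 3 it was -1.38 for Syce3, -0.64 for Tex12 and -1.23 for Sycp3.

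Genes that work with the complex were counted by list. At E18.5 the list of other central element, crossover and synapsis genes had 2 of 11 tested genes lower in the null and none higher, where 1.67% of all genes were lower and 3.32% higher. Six6os1, which encodes a central element protein that binds SYCE1, was at 54.1 to 112 CPM in wild type and 27.8 to 43.4 in the null, with no overlap (log2 difference -1.22 ± 0.218, adjusted p = 0.0122). Hfm1, a crossover helicase, went from 30.0 ± 5.20 to 18.5 ± 3.96 CPM (SD, n = 4 each, adjusted p = 0.047). The axis and cohesin list had 1 lower and 1 higher of 8. Rec8 was at 74.7, 59.4, 87.4 and 62.1 CPM in wild type and 31.5, 23.2, 29.0 and 27.5 in the null (-1.36 ± 0.149, adjusted p = 0.00105), and Trip13, whose product removes HORMAD proteins from synapsed axes, rose by 0.70 ± 0.136 (adjusted p = 0.0154). In 12wk wild type, where Ddx4 was at 0.258 to 0.792 CPM, Rec8 was still at 3.94 to 15.4 CPM. It was lower in the null at PND8, at 3.24 to 4.13 CPM against 6.38 to 14.2 (-1.70 ± 0.268, adjusted p = 0.0473), a call that was lost with all groups in 1 fit and without null replicate 3 or 4, where no gene at all was called.

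The other lists at E18.5 held few calls. The 19 break formation and strand exchange genes split, with 1 called lower and 1 called higher in the null. The lower gene was Rec114 (-0.99 ± 0.245, adjusted p = 0.0436). Among 7 telomere attachment genes Cdk2, which is also a kinase of the mitotic cycle, was higher (0.56 ± 0.127, adjusted p = 0.0295). None of 6 meiotic entry genes and none of 10 germ cell genes was called. At E13.5 and 12wk no gene of these lists was called, and at PND8 Rec8 alone.

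The same lists were counted over the step from E13.5 to E18.5 in wild type, where 16.6% of all genes rose and 17.5% fell. The crossover and synapsis list had 8 of 11 genes higher and none lower, with Shoc1 going from 0.279 ± 0.0953 to 6.06 ± 1.83 CPM, Ccnb1ip1 from 1.56 ± 0.418 to 14.1 ± 4.74 and Hfm1 from 7.95 ± 1.12 to 30.0 ± 5.20 (SD, n = 4 each). Among strand exchange genes 9 of 19 rose, led by Spata22 (0.0920 ± 0.0146 to 14.3 ± 1.75 CPM), Spo11 (0.386 ± 0.209 to 16.7 ± 1.77) and Ankrd31 (0.258 ± 0.137 to 20.1 ± 7.86). Terb1, Majin and Terb2, which tether telomeres to the nuclear envelope, were among 4 of 7 telomere genes that rose. The axis list split, with 5 of 8 higher (Hormad1 and Meikin among them) and 2 lower, including Trip13. Of 7 meiotic entry genes 2 rose and 3 fell: Stra8 fell from 7.34 ± 2.53 to 0.181 ± 0.154 CPM while Meiosin rose by 1.41 ± 0.293 on the log2 scale. Of 10 germ cell genes 4 rose and 3 fell. Of 12 primordial germ cell genes 11 fell and none rose. Shoc1, Spata22, Spo11, Ankrd31, Majin and Meikin, among others, had enough counts for the test through E18.5 alone. Stra8 and primordial germ cell genes such as Sox2 and Prdm14 had enough through E13.5 alone. For these genes a change in the other direction was hardly possible, so the shares of all genes are no measure of their change.

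How closely the 7 genes run together was described by correlation over the 29 libraries, which share the large changes with age. Each gene's log2 level was set against the mean of the other 6. Pearson's r was 0.991 for Sycp1, 0.986 for Sycp3, 0.959 for Tex12, 0.926 for Sycp2, 0.919 for Syce1, 0.875 for Syce3 and 0.842 for Syce2. Over 13744 genes ranked against the mean of all 7, the most alike were Fmr1nb (r = 0.990), Mageb4 (0.985), Ccdc172 (0.983), D1Pas1 (0.982), Adad1 (0.981), Ccnb1ip1 (0.979), Pnck (0.979), Hsf5 (0.975), Topaz1 (0.975) and Edaradd (0.973). By Spearman's rank correlation 5 of these 10 stayed among the first 10 (Fmr1nb, Mageb4, Ccdc172, Ccnb1ip1 and Topaz1). Fmr1nb, for example, was at a mean of 3.87 CPM in E13.5 wild type, 22.3 at E18.5 and 0.360 at PND8.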

How the data were processed

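Whole-ovary RNA was sequenced from 29 libraries in 8 groups of age and genotype. The deposited table holds RSEM expected counts per gene, and 31.4% of its values above 0 are not whole. Per the submitters' processing notes, Trim Galore, FastQC 0.11.5, STAR 2.5.2 and RSEM 1.3.0 were used; the genome build, library kit and strandedness are not given in the sources used here. Gene symbols, positions and exon lengths came from GENCODE M21 (GRCm38), with RefSeq synonyms for 7 list genes; Spo16 and Speedya were not matched.

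Expected counts were rounded and tested with edgeR 4.0.16 (R 4.3.3): TMM scaling, filterByExpr (minimum count 10, total 15), robust quasi-likelihood F tests, Benjamini-Hochberg adjustment over all genes tested, threshold 0.05. Each comparison used its own groups. CPM used unrounded values. The test was checked on simulated data. Alternatives were DESeq2 1.42.0, RLE scaling, no filter, all groups in 1 fit, a replicate block and leaving out each library. Replicates of a group differed beyond sampling noise in all 39 pairs (chi-square per degree of freedom 12.99 or more). The genes and lists were chosen with earlier results of these data known. Named genes were the 7 genes, Cdkn1b, 8 companions (Ddx4, Dazl, Stra8, Meiosin, Rec8, Hormad1, Dmc1 and Pou5f1), up to 3 called genes per list and comparison with the smallest p, and the 10 most alike by Pearson's r among genes of mean CPM 1 or more; Foxl2 and Chpt1 were added after their values were seen. Some list genes are not reported here.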

Additional observations from a re-analysis of the deposited data

Results flagged for a closer look

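In E13.5 wild type, Tex12 was at 8.11 CPM in replicate 4, and the other 3 libraries lay between 5.42 and 5.77, a gap wide for a group of 4. In E18.5 wild type, Cdkn1b was at 123 CPM in 1 library and at 95.2 to 97.7 in the others. In 12wk wild type, Sycp3 (0.0348 CPM), Syce3 (0.0315 CPM) and Tex12 (0.0287 CPM) were each seen in 1 library and at 0 in the other 3; these values stand for about 1 count and lie under the level of 3 counts. For continuous values, chance alone gives such a gap in about 1 in 20 groups, and it was found in 5 of 38. For the 3 genes at 12wk, 1 library above 0 beside 3 at 0 always counts as such a gap. The rate of 1 in 20 does not apply to them, so no excess can be read from the 5. The effect of genotype on Cdkn1b itself differed among the 4 ages (edgeR interaction test, adjusted p = 0.00427): the log2 difference was -2.38 and -3.06 at the fetal ages, -1.06 in pups of PND8 and -1.85 in adults.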

How the results depend on the processing

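RLE scaling changed none of the counts of called complex genes or the calls for single genes. At E18.5 the number of the 7 genes called between genotypes went from 0 to 3 with DESeq2, to 1 without the filter on low counts and to 2 with the replicate block (Syce3, adjusted p = 0.0443, and Tex12, 0.0253). In the null step from E13.5 to E18.5 it went from 4 to 2 without the filter and to 2 with the block. Over the 4 ages the interaction called 0, and 1 with DESeq2; over E13.5 and E18.5 alone it called 0, and 1 with DESeq2 (Syce3). The ages at which Cdkn1b was called went from 3 to 1 with the block. With Spearman's correlation 5 of the 10 most alike genes were kept. Leaving out 1 library at a time gave 2 to 6 calls for the null step from E13.5 to E18.5, 2 to 5 for the null step from PND8 to 12wk and 0 to 1 for the interaction. Signs changed in the log2 ranges of Sycp1 (-0.463 to 1.29), Sycp2 (-0.968 to 1.76) and Tex12 (-0.0495 to 2.37) at E13.5, Syce2 at E18.5 (-0.188 to 0.103), Sycp1 at PND8 (-0.0321 to 0.78) and Syce1 in the null step from E13.5 to E18.5 (-1.21 to 0.23). The cause of these changes was not tested.

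Replicate numbers did not pair the samples: deviations of same-numbered libraries correlated by 0.0118 to 0.181 on average at the 4 ages, and not every library matched its own number best. With the block, Syce1 in the wild-type step from E13.5 to E18.5 had an adjusted p of 0.0538 and in the null step from PND8 to 12wk one of 0.0642.

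Over all genes, E13.5 gave 1 call, 65 with DESeq2 and 59 with all groups in 1 fit. E18.5 gave 814, and 1685 with DESeq2. PND8 gave 62, with 258 without the filter, 824 with DESeq2, 8 with the block and 0 with all groups in 1 fit. The 12wk comparison gave 2, with 12, 326, 10 and 68 in the same order. The interaction gave 164, and 706 with DESeq2; for E13.5 and E18.5 alone it gave 76, and 308. Leaving out 1 library gave 0 to 1, 246 to 1372, 0 to 147 and 0 to 3 calls from E13.5 to 12wk. Counts at or under 3 in part of the libraries limit Syce3 at E13.5 and PND8, Tex12 at PND8 and every gene but Syce2 at 12wk.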
